A study of Mus musculus with 10 samples.

Results

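F-box proteins are the substrate receptors of SCF ubiquitin ligases. The genes described here are the rows of a mouse ovary expression table whose symbol begins with Fbxo, Fbxl or Fbxw followed by a digit, together with Skp2, Btrc and Ccnf, which belong to the same family under older names. Of the 22891 genes in the table, 82 met this rule: 36 Fbxo, 19 Fbxl and 24 Fbxw genes and those 3. The symbols were taken from an annotation matched on the Ensembl identifier. The annotation listed 80 of the 82 as protein coding. The other 2 were Fbxl12os, an antisense RNA that meets the rule by its name only, and Fbxw23, a pseudogene.

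An SCF ligase is built on the scaffold protein cullin 1. The small protein Rbx1 binds one end of the scaffold and brings in the ubiquitin-carrying enzyme, and the adaptor Skp1 binds the other end and holds an F-box protein. The F-box protein picks the substrate, most often through WD40 repeats (the Fbxw class) or leucine-rich repeats (the Fbxl class), while the Fbxo class has other domains or none known. Cullin 1 works well only when the ubiquitin-like protein Nedd8 is attached to it. Attachment starts with an activating enzyme of which Uba3 is the catalytic partner. The mouse genome also carries a run of closely related Fbxw genes on chromosome 9 whose transcripts are known from oocytes.

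RNA was measured by sequencing in 10 whole ovaries from unstimulated mice, all 3 weeks of age and on a C57/Bl6/N;129SvEv7 background. The labels name 5 libraries Control and 5 Uba3 cKO, that is, a conditional knockout of Uba3. The allele, the deleted exons, the Cre line and the cells it acts in are not given in the sources used here, and neither is the genotype of the controls beyond that word.

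The table holds log2-scale values with no counts, so the depth of each library is unknown. Library medians over all genes ran from 6.29 to 6.44. Uba3 itself, summed over the whole gene, was 10.12 ± 0.18 (SD, n = 5) in the controls and 10.12 ± 0.069 (SD, n = 5) in the libraries labelled Uba3 cKO. This value did not separate the groups, so the group names below are those of the labels. Markers of the ovary were present. The mean of 10 granulosa cell markers lay between 12.83 and 13.11, that of 27 oocyte markers between 9.19 and 10.01 and that of 10 stromal markers between 9.90 and 10.83. Skeletal muscle was near the bottom of the scale, with a mean of 2.30 to 2.40 over the 4 markers found. Whether the libraries came from separate animals is not stated. P-values therefore measure the spread between these samples.

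Most of the F-box genes that varied widely between the ovaries belong to a run of 15 neighbours on chromosome 9. They lie side by side on the minus strand between Plxnb1 and Spink8, with no other coding gene among them, in the order Fbxw21, Fbxw13, Fbxw20, Fbxw14, Fbxw28, Fbxw22, Fbxw16, Fbxw19, Fbxw23, Fbxw15, Fbxw24, Fbxw25, Fbxw18, Fbxw26 and Fbxw27. Of these, 14 are coding and 1, Fbxw23, is the pseudogene. A RefSeq promoter on the GRCm38.p6 build, running from 250 bases before the start of the gene to 50 after it, was found for 61 of the 82 genes and for 12 of the 15 neighbours. Fbxw13, Fbxw22 and Fbxw27 had no entry.

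The promoters of the neighbours are shown because they resemble one another to varying degrees, with Fbxw23 as the exception. The 160 bases before the start are printed for 6 genes, read 5′ to 3′ on the minus strand, with each CAGCTG in capitals. This hexamer is an E-box, the kind of site bound by basic helix-loop-helix factors, and it reads the same on both strands. Fbxw24 (chr9:109626060-109626219) had the highest level of the run, and Fbxw28 (chr9:109339660-109339819) is the near twin of Fbxw14. Fbxw18 (chr9:109702701-109702860) and Fbxw26 (chr9:109746090-109746249) varied most between ovaries. Fbxw20 (chr9:109234755-109234914) has 1 copy of the hexamer, and Fbxw23 (chr9:109543190-109543349) is the pseudogene.
Fbxw24: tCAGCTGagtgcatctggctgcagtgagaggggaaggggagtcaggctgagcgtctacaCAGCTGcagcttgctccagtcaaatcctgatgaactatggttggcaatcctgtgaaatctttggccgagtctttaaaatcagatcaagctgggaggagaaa
Fbxw28: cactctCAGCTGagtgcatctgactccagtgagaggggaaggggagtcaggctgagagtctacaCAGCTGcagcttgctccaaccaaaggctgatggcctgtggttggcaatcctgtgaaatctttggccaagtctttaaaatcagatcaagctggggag
Fbxw18: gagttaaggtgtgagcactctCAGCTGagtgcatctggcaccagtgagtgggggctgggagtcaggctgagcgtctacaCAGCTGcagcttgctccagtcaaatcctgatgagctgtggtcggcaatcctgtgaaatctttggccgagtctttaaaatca
Fbxw26: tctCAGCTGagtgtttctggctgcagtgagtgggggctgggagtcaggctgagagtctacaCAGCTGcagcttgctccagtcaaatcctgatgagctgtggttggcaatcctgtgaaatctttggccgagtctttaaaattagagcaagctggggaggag
Fbxw20: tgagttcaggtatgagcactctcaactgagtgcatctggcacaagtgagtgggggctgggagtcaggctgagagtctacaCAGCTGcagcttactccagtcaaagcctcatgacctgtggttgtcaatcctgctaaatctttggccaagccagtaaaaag
Fbxw23: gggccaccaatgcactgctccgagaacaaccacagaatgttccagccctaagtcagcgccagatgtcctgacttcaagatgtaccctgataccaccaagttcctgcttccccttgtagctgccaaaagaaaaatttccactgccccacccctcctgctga

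Over the full 300 bases, the 55 pairs among the 11 coding neighbours with a promoter were identical at a median of 85.6% of positions, from 64.8% to 96.7%. Pairs of Fbxw23 with those genes matched at a median of 48.7%. That value is close to the median of 49.3% over 1176 pairs of F-box promoters from outside the run. CAGCTG was in 11 of the 12 promoters of the run, all but that of Fbxw23, and 10 of them held 2 copies. Those copies started 56 to 58 bases apart. The coding neighbours have promoters that are similar in sequence, so these counts do not come from independent sequences. Over all 27025 RefSeq promoters of the same length, 16.1% held CAGCTG and 1.75% held it at least 2 times. Among the other F-box genes the count was 11 of 49. The wider E-box pattern CANNTG, which includes CAGCTG, was in 12 of 12 against 72.1% of all promoters.

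Other motifs were searched on both strands in the same windows. TAATTG and TAATTA, the core letters bound by the oocyte homeobox factor Nobox, were in none of the 12 and in 8.15% and 5.31% of all promoters. TATAAA, the TATA box, was likewise in none, against 14.2%. GGGCGG, the GC box of many widely active genes, was in 1 of the 12, that of Fbxw18, against 35.9% of all promoters and 69.4% of the other F-box promoters. CCAAT was in 2 of the 12, Fbxw16 and Fbxw23, against 37.9%. Here too the coding neighbours are similar and not independent sequences. A match describes the letters only, and no binding was measured.

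The 15 neighbours covered a wide range of levels. Fbxw24 (ENSMUSG00000062275) stood highest at 10.02, 10.55, 10.60, 10.20 and 10.43 in control replicates 1 to 5 and at 10.71, 10.43, 9.94, 10.50 and 9.89 in the libraries labelled Uba3 cKO. The lowest coding member, Fbxw25, had a mean of 5.996 ± 0.27 (SD, n = 5) in the controls, and the pseudogene Fbxw23 had 5.16 ± 0.17 (SD, n = 5). Summed on the linear scale, Fbxw24 made up 19.4% to 21.5% of the run in each ovary. Fbxw18 made up 8.82% to 13.0% and Fbxw23 0.44% to 0.69%. The share of Fbxw24 was thus nearly fixed while that of Fbxw18 moved.

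Per transcript length, the top gene of the family was in the run, but most of the run ranked well below it. On the scale of log2 level minus log2 of the longest transcript in kilobases, Fbxw24 was first of the tested F-box genes at 9.75 and Fbxw18 was eighth at 8.81. Between them came Fbxw8 at 9.36, Fbxw11 and Fbxo21 at 9.27 each, Fbxl6 at 9.09, Fbxw5 at 8.89 and Fbxl19 at 8.83.

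The spread of the run between ovaries was wider than that of the rest of the family. The SD over the 10 libraries had a median of 0.284 over the 15 genes, with a range of 0.146 to 0.476. The median was 0.114 over the 63 other F-box genes that passed the filter on low values and 0.137 over all genes tested. Of the 16 F-box genes with an SD of at least 0.24, 14 were in the run. This cutoff was not planned, and the share of all genes that reach it was not counted. Outside the run, Fbxl7 (0.231) and Fbxl15 (0.229) lay just under it. Fbxw26 spanned 2.46-fold from its lowest to its highest ovary and Fbxw18 2.41-fold.

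**Figure D1:**
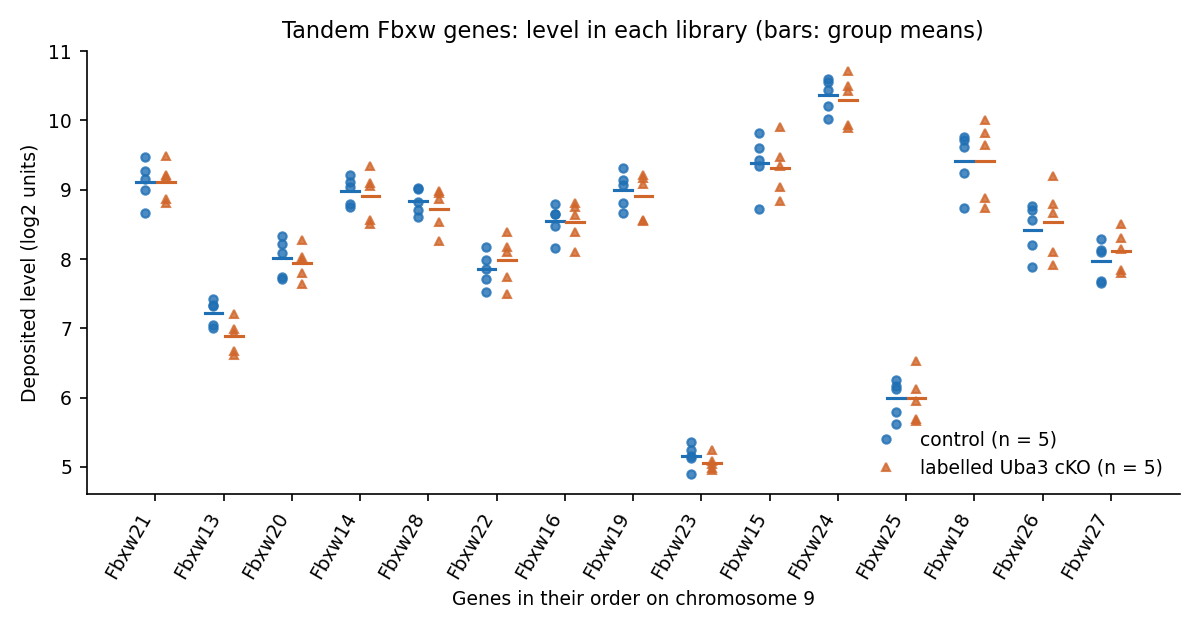
Deposited level (log2 units) of the 15 neighbouring Fbxw genes, in their order on chromosome 9, with 1 point per library and a bar at each group mean (n = 5). Levels run from about 5 for the pseudogene Fbxw23 to above 10 for Fbxw24, and the values of the 2 groups overlap for each gene.

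Most of the neighbours, 12 of the 15, rose and fell with the oocyte content of the ovary. The oocyte level of a library was taken as the mean of 27 oocyte markers such as Gdf9, Bmp15 and Zp3. It was 9.40, 10.01, 9.998, 9.41 and 9.70 in control replicates 1 to 5 and 9.95, 9.86, 9.41, 9.95 and 9.19 in the libraries labelled Uba3 cKO, a range of 1.76-fold. The groups overlapped throughout, with means of 9.70 ± 0.30 and 9.67 ± 0.35 (SD, n = 5 each, exact two-sided permutation p = 0.849). In a whole ovary, fewer oocytes and less RNA per oocyte cannot be told apart.

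Each gene was then given a slope, the change in its log2 level per unit of oocyte level with group held constant. A slope of 1 means that a gene moves as the average marker does. The limma fit and its adjustment ran over all 15629 genes, including the 27 markers, and 22 of these markers passed. Since the markers define the oocyte level, their passing was built in, and it eases the adjusted threshold for other genes. Of the other 15602 genes, 300 (1.92%) had a positive slope at an adjusted p of at most 0.05 and 27 (0.173%) a negative one. Of the 78 tested F-box genes, 12 passed, all of them with positive slopes. All 12 were in the run on chromosome 9, so that 12 of its 15 genes passed and 0 of the 63 others did. In simulated data the same fit found a median of 13.5% of genes given a slope of 0.5, and 81.75% at a slope of 1. Genes with slopes near 0.5 would thus mostly be missed, and the highest slope outside the run was 0.61. The median slope was 0.83 in the run, 0.027 over the other tested F-box genes and -0.011 over all genes.

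Fbxw24 had the smallest p, with a slope of 0.90 (SE 0.12, limma adjusted p = 0.00236). Fbxw19 was 8.67, 9.07, 9.31, 8.81 and 9.14 in the controls and 9.21, 9.08, 8.54, 9.17 and 8.56 in the libraries labelled Uba3 cKO. Its slope was 0.84 (SE 0.13, limma adjusted p = 0.0069). The lowest values of both genes fell in the 4 ovaries with an oocyte level under 9.5, whichever group these belonged to.

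Fbxw28 (0.75), Fbxw22 (0.89), Fbxw14 (0.84), Fbxw27 (0.83), Fbxw16 (0.75), Fbxw21 (0.79) and Fbxw20 (0.70) had slopes near that of Fbxw24. Fbxw13 had the shallowest slope of those that passed at 0.59 (SE 0.14). Fbxw18 and Fbxw26 had the steepest, at 1.26 (SE 0.27) and 1.11 (SE 0.26), and their errors were among the widest. The intervals of these slopes overlap, and differences between them were not tested. Fbxw28 and Fbxw14 are not independent here, because the counting could have shared or dropped their reads. Over 96.8% of its length, the longest transcript of Fbxw28 matched a transcript of Fbxw14 at 98.8% of positions. The same limit holds in part for Fbxw16, with 43.2% of its transcript in matches of at least 95% identity to other genes, and for Fbxw23, with 22.1%. Outside the run it holds for Fbxo34, with 59.7% of its transcript in such matches and Gm7224 as its closest gene.

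The 3 neighbours that did not pass were Fbxw15 with a slope of 0.98 (SE 0.24, limma adjusted p = 0.059), Fbxw25 with 0.68 (SE 0.23, limma adjusted p = 0.156) and the pseudogene Fbxw23 with 0.25 (SE 0.14, limma adjusted p = 0.404). The interval of Fbxw23 ran from -0.066 to 0.56.

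**Figure D2:**
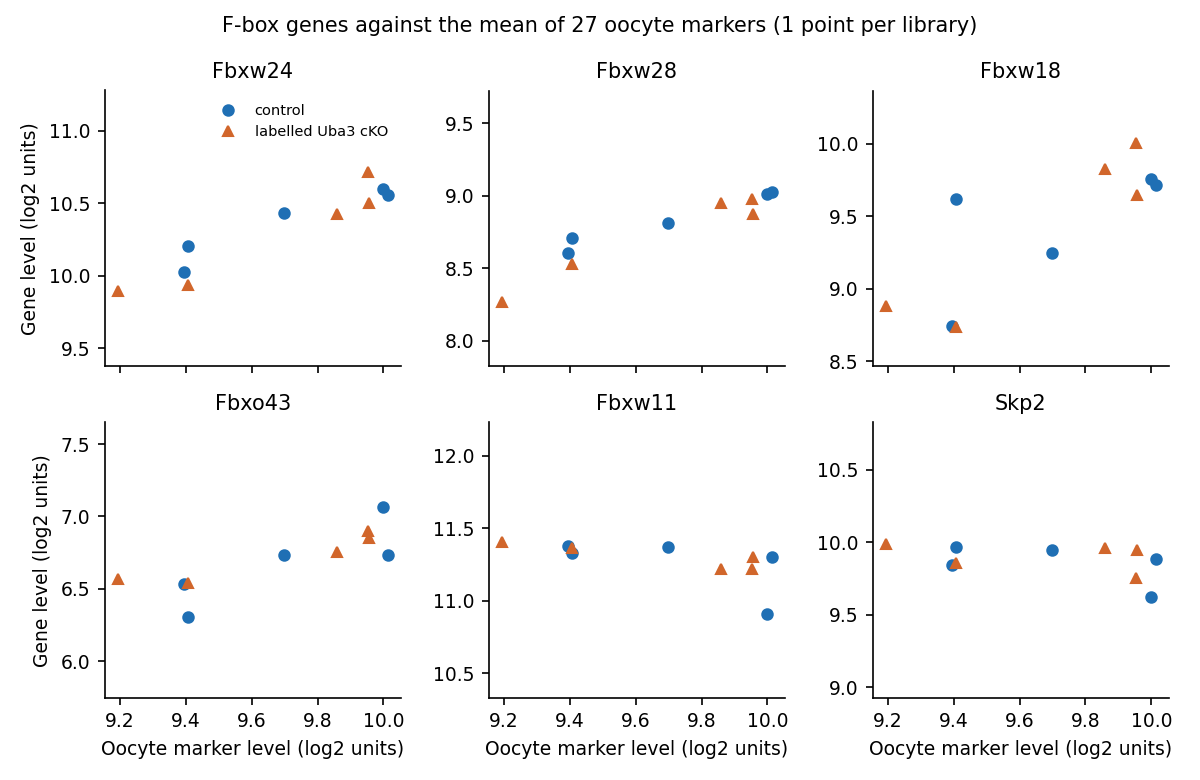
Level of 6 F-box genes (vertical axis, log2 units) against the mean of 27 oocyte markers (horizontal axis, log2 units), with 1 point per library and the 2 groups marked by shape. Genes of the run on chromosome 9 climb with the oocyte level, from 9.89 to 10.71 for Fbxw24, in controls and in libraries labelled Uba3 cKO.

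The count rested in part on single ovaries. It was 4 to 11 F-box genes when each library was left out in turn, with all of them in the run. It fell to 4 without replicate 5 of the libraries labelled Uba3 cKO, the ovary with the lowest oocyte level, and to 7 each without control replicate 1 and without replicates 1 and 3 labelled Uba3 cKO. Fbxw24, Fbxw19 and Fbxw27 passed in all 10 of these fits. Fbxw14, Fbxw16, Fbxw22 and Fbxw28 passed in 9 and Fbxw21 in 6. Fbxw20 passed in 3, Fbxw18 in 2, and Fbxw13 and Fbxw26 in 1 each. With weights for library quality, 18 passed, and 5 of these lay outside the run: Fbxo17, Fbxo21, Fbxo34, Fbxo40 and Fbxo43. Fbxo17 also passed with no group term and with no variance trend, and Fbxo21 with a term for transcript length.

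Other measures moved with the oocyte level over the 10 libraries, and the levels of other cell types were tested only as covariates. Pearson's r with the oocyte level was 0.57 for the mean of 6 endothelial markers and 0.38 for the stromal markers. With the endothelial level in the fit, an alternative chosen after seeing the data, 7 F-box genes passed, all in the run: Fbxw21, Fbxw28, Fbxw22, Fbxw16, Fbxw19, Fbxw24 and Fbxw27. The median slope of the run was then 0.85. With the stromal level in the fit, 10 passed. The library median over all genes had r = 0.89 with the oocyte level, and its part in the slopes was not tested. Median centring used the median of the tested genes instead. With it 12 F-box genes passed, and the median slope of the run was 0.82.

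As a description of the 12 genes, Pearson's r with the oocyte level over the 10 libraries ran from 0.71 to 0.95 and Spearman's rho from 0.61 to 0.93. The 12 were chosen because they passed on this same oocyte level in these same libraries. Small p-values were therefore built in, and they add no separate support. Permutation p-values for r reached 0.0275 at most, also after Benjamini-Hochberg adjustment over the 12. For rho they reached 0.0684, at Fbxw13. Without the 2 libraries farthest from the median oocyte level, r was 0.65 to 0.93.

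**Figure D3:**
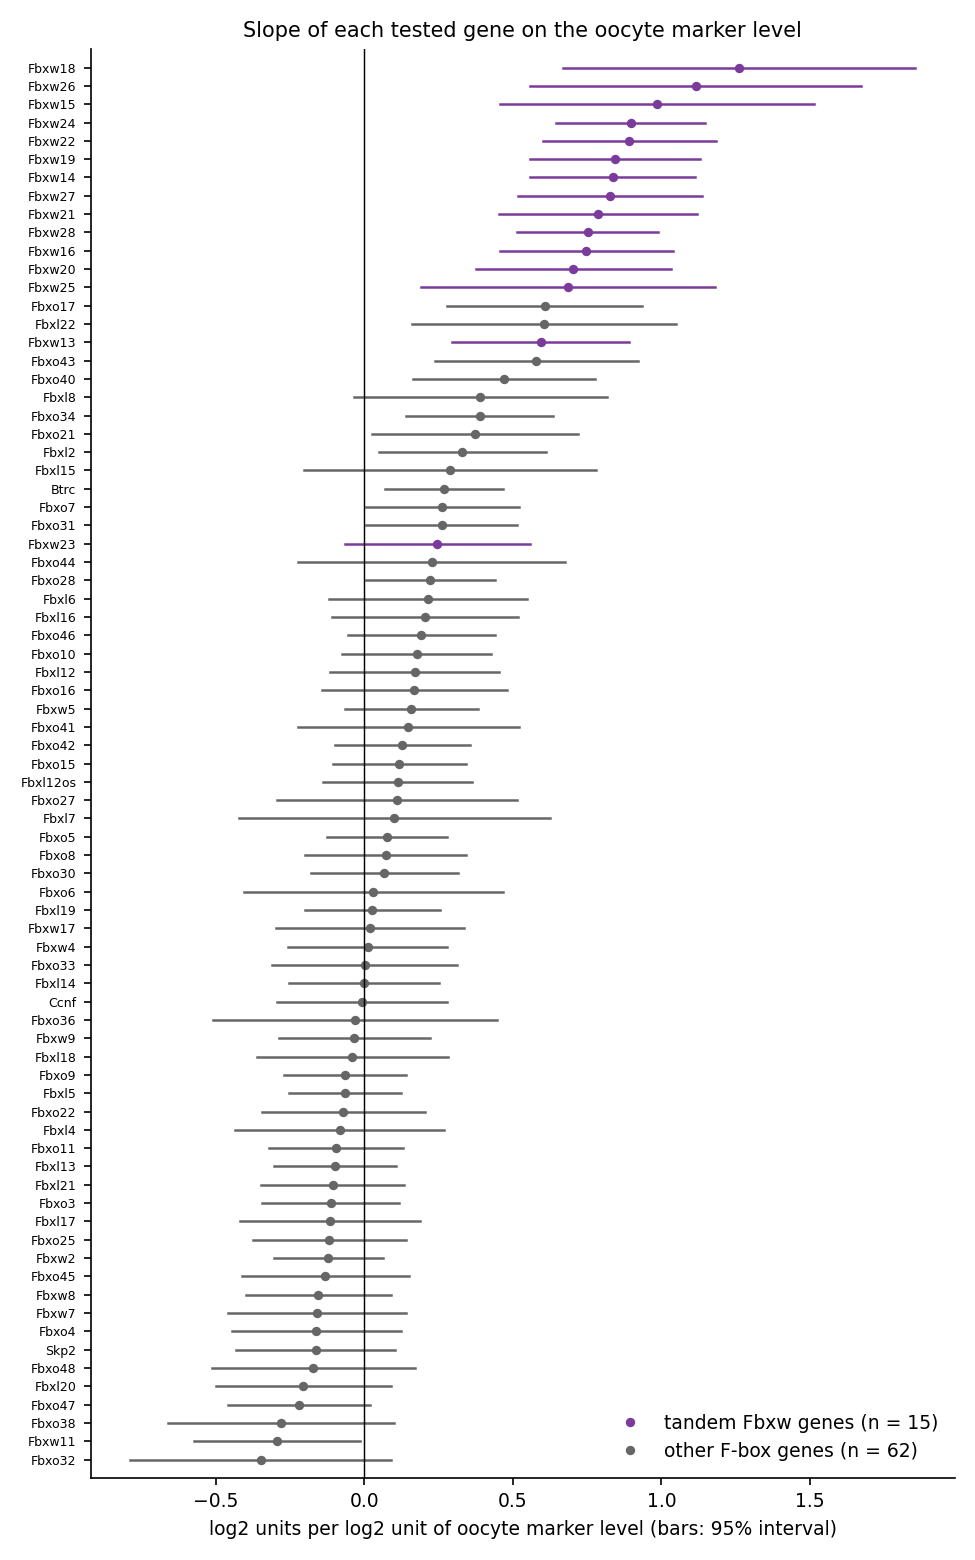
Slope of 77 tested F-box genes on the oocyte marker level (log2 units per log2 unit, with 95% intervals), sorted by slope. The 15 genes of the run on chromosome 9 are marked: the 14 coding ones lie between 0.59 and 1.26 and Fbxw23 at 0.25, while the highest slope outside the run is 0.61 for Fbxo17.

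Within the run, 4 genes lay farther from their lines than most others. The distance of each gene from its own line on the oocyte level was widest for Fbxw15, Fbxw25, Fbxw18 and Fbxw26, whose residual SDs were 0.23 to 0.29. The other 11 genes had residual SDs of 0.086 to 0.20. In control replicate 4 all 4 lay above the line, at 0.36 for Fbxw15, 0.37 for Fbxw25, 0.56 for Fbxw18 and 0.39 for Fbxw26. Fbxw24, which sits between Fbxw15 and Fbxw25, was 0.13 above its line in that ovary, and Fbxw27 at the end of the run was 0.13 below it.

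The same 4 genes lay above the line in replicate 1 labelled Uba3 cKO, by 0.26 to 0.42, where Fbxw22 and Fbxw27 were also 0.24 above theirs. They lay below it in control replicate 1, with Fbxw15 at -0.34 and Fbxw25 at -0.17, in replicate 3 labelled Uba3 cKO, with Fbxw18 at -0.33 and Fbxw25 at -0.12, and in replicate 4 labelled Uba3 cKO, with Fbxw15 at -0.27 and Fbxw18 at -0.11. These ovaries come from both groups. Being low in them was not particular to the 4 genes. Fbxw21 was at -0.22 in control replicate 1, and Fbxw13 was at -0.26 and -0.23 in replicates 3 and 4 labelled Uba3 cKO. Not all neighbours were low, and Fbxw13 was 0.18 above its line in control replicate 1. The 4 genes were singled out after their values had been seen, so this is a description without a test.

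**Figure D4:**
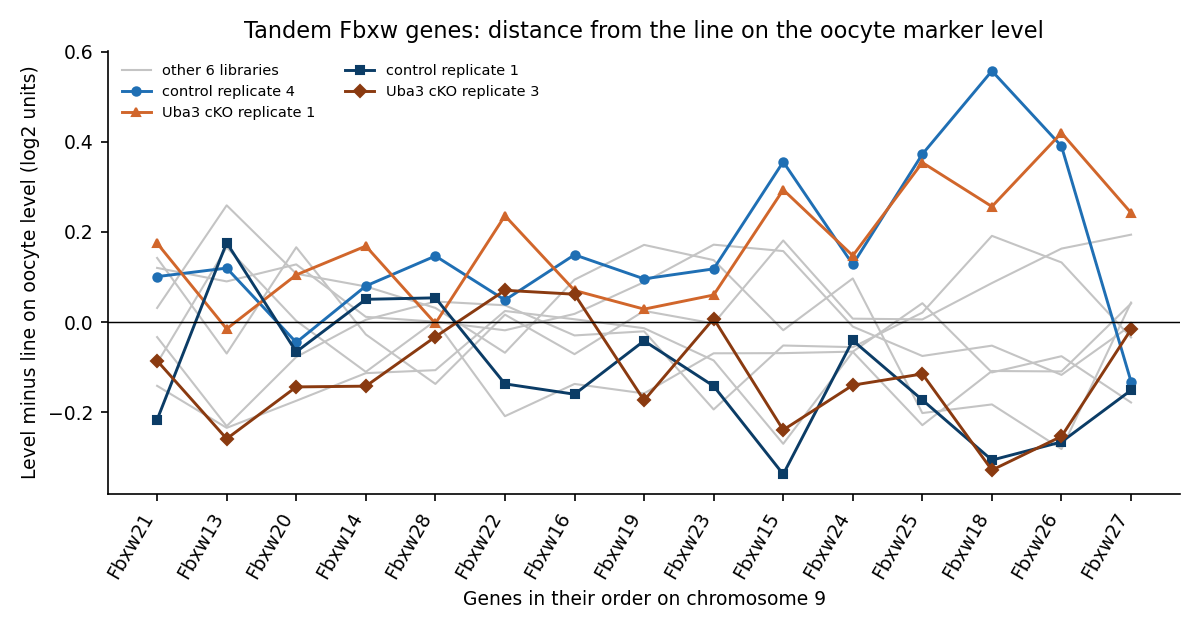
Level minus the fitted line on the oocyte level (log2 units) for the 15 neighbouring Fbxw genes in their chromosome order, with 1 line per library. Fbxw15, Fbxw25, Fbxw18 and Fbxw26 lie high in control replicate 4 (0.36 to 0.56) and in replicate 1 labelled Uba3 cKO, and low in control replicate 1 and in replicate 3 labelled Uba3 cKO.

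Slopes were smaller in the rest of the family. Outside the run, 11 of the 63 genes had a positive slope at an unadjusted p under 0.05 and 1 a negative one. Over all genes these shares were 9.21% and 7.20%. Fbxo17, a receptor of the sugar-binding group, had the smallest adjusted p with a slope of 0.61 (SE 0.15, limma adjusted p = 0.061).

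Fbxo43, also called Emi2, holds the egg in metaphase of the second meiotic division by blocking the anaphase-promoting complex. It was 6.53, 6.73, 7.06, 6.31 and 6.73 in the controls and 6.90, 6.76, 6.54, 6.85 and 6.57 in the libraries labelled Uba3 cKO. Its 4 lowest values were in the 4 ovaries with an oocyte level under 9.5, and its slope of 0.58 (SE 0.16, limma adjusted p = 0.086) missed the threshold. Fbxw11, a paralogue of Btrc, had the 1 negative slope, at -0.29 (SE 0.13, limma adjusted p = 0.275).

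No F-box gene differed between the groups past the threshold. In limma over 15629 genes, 0 of the 78 tested F-box genes and 0 of all genes (0.00%) had an adjusted p of at most 0.05. At an unadjusted p under 0.05 there was 1 F-box gene, Fbxw13, against 280 genes or 1.79% of all. Values of the 2 groups were apart without overlap for 0 of the 78 and for 50 of all genes (0.320%). In the libraries labelled Uba3 cKO, 40 of the 78 had a higher mean and 38 a lower one, with a median difference of 0.0017.

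The intervals show how large a difference could have been missed. The 95% interval of the log2 difference lay within 0.5 of 0 for 73 of the 78 (93.6%, against 94.9% of all genes) and within 1 for all 78. In the run on chromosome 9 this held within 0.5 for 11 of 15, and outside it for 62 of 63. The run had 5 genes with a higher mean and 10 with a lower one in the libraries labelled Uba3 cKO, with a median of -0.063.

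Fbxw13 was 7.05, 7.42, 7.34, 7.001 and 7.32 in the controls and 7.20, 6.93, 6.62, 6.99 and 6.68 in the libraries labelled Uba3 cKO. The groups overlapped, with replicate 1 labelled Uba3 cKO above 2 of the controls. The means were 7.23 ± 0.19 and 6.88 ± 0.24 (SD, n = 5 each), a log2 difference of -0.34 (SE 0.13, limma adjusted p = 0.9999). The difference was -0.32 with the oocyte level in the fit, with a limma adjusted p of 0.84. Its distances from a line on the oocyte level alone did not overlap, at 0.090 to 0.26 in the 5 controls and -0.26 to -0.015 in the 5 libraries labelled Uba3 cKO. Over the 78 tested F-box genes such distances did not overlap for 2, Fbxw13 and Btrc, and over all genes for 154 (0.985%).

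**Figure D5:**
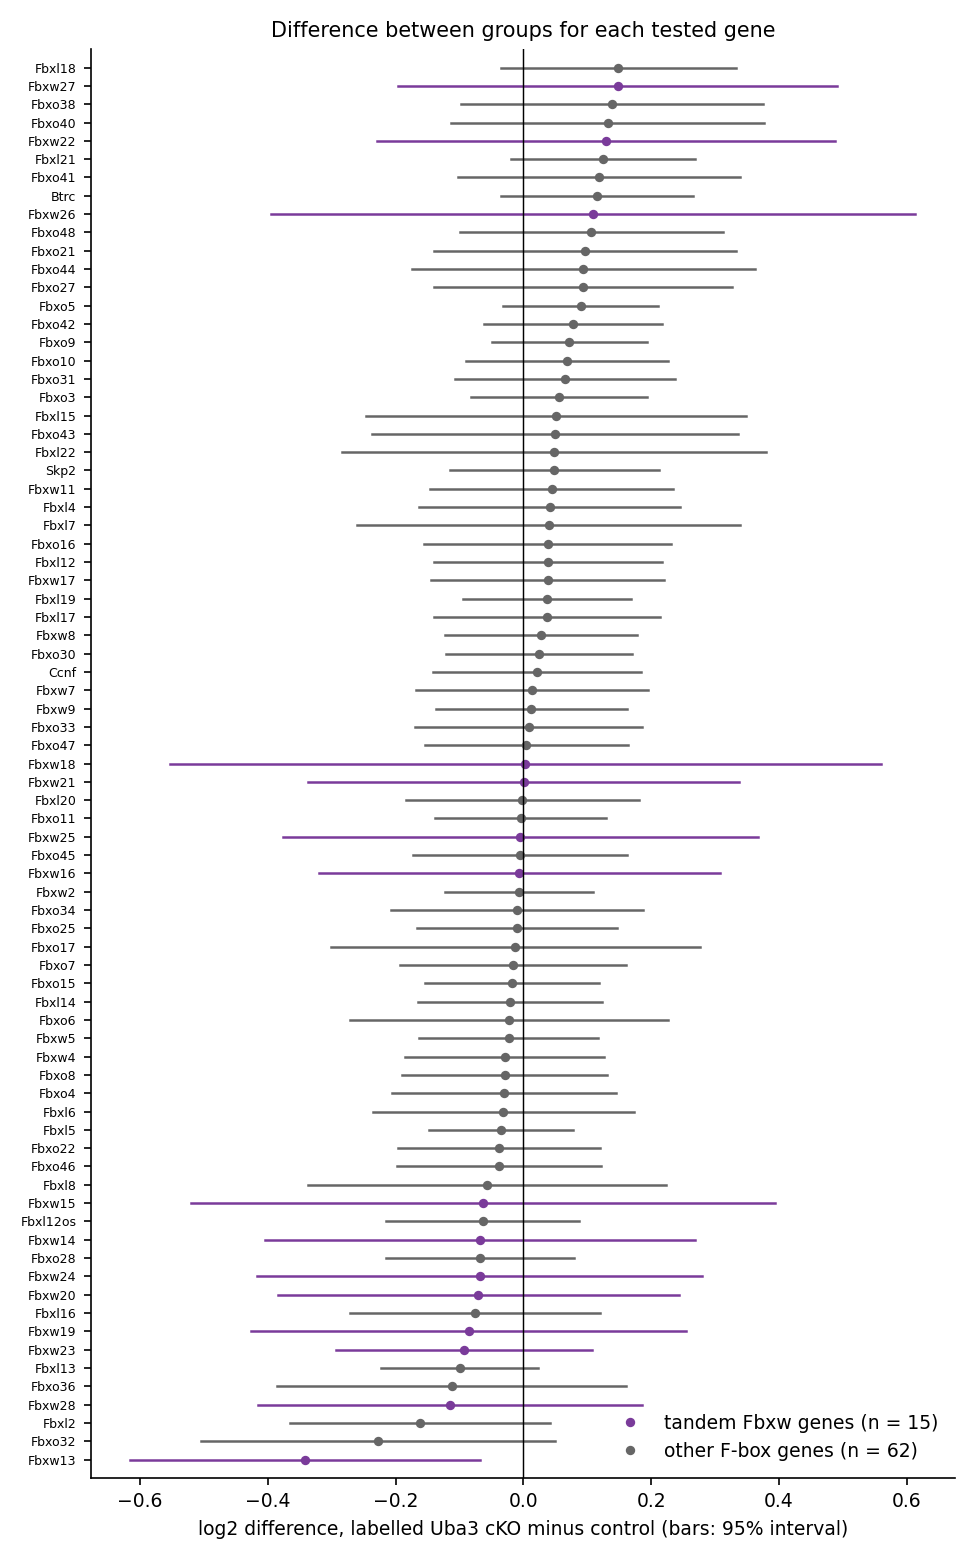
Log2 difference between the libraries labelled Uba3 cKO and the controls for 77 tested F-box genes (points, with 95% intervals), sorted by difference. Differences run from -0.34 for Fbxw13 to 0.15, and Fbxw13 is the 1 gene drawn whose interval leaves out 0.

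The receptors linked to the cell cycle and meiosis gave 0 calls between the groups. Skp2, which with its partner Cks1 marks the cyclin-dependent kinase inhibitor p27 for destruction, was 9.85, 9.88, 9.62, 9.97 and 9.94 in the controls and 9.75, 9.96, 9.86, 9.94 and 9.99 in the libraries labelled Uba3 cKO. Its difference was 0.048 (SE 0.076), and the groups overlapped. Ccnf, or cyclin F, the protein that gave the F-box its name, was 10.02 ± 0.090 in the controls and 10.04 ± 0.14 in the libraries labelled Uba3 cKO (SD, n = 5 each), a difference of 0.021 (SE 0.075).

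Fbxo5, or Emi1, blocks the anaphase-promoting complex before mitosis. It was 9.50 ± 0.043 in the controls and 9.58 ± 0.063 in the libraries labelled Uba3 cKO (SD, n = 5 each), a difference of 0.090 (SE 0.056, limma adjusted p = 0.9999). Taken alone, this difference had an exact two-sided permutation p of 0.040, as did that of Fbxw13, without adjustment for the 78 genes. In limma the unadjusted p was 0.13 for Fbxo5 and 0.018 for Fbxw13. The exact test was not run over all genes, so the share of all genes with such a value is unknown. The other members of this list, Fbxo43, Fbxo4, Fbxo31, Fbxo30, Fbxo34, Fbxo47 and Fbxl7, gave 0 calls, and over the 10 genes 8 had a higher mean and 2 a lower one. Differences in the list ran from -0.031 to 0.090.

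The WD40 receptors outside the run included the highest levels of the family, not divided by transcript length. Fbxw8, which works with cullin 7, was first at 11.67 ± 0.058 in the controls and 11.70 ± 0.14 in the libraries labelled Uba3 cKO (SD, n = 5 each). Part of this value is uncertain, because 33.4% of its exon length overlaps another gene, Gm9754, and the strand used in counting is not stated. Fbxw11, which with Btrc recognises phosphorylated beta-catenin and the NF-kappaB inhibitor IkB, was second at a mean of 11.28 over all 10 libraries.

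Btrc was 9.37, 9.45, 9.50, 9.34 and 9.42 in the controls and 9.63, 9.57, 9.38, 9.66 and 9.43 in the libraries labelled Uba3 cKO. Of the latter, 3 lay above all controls and 2 among them, and the difference was 0.12 (SE 0.069, limma adjusted p = 0.9999). Fbxw7, the receptor for cyclin E, Myc, Notch and Jun, had a difference of 0.014 (SE 0.084). Of the 9 tested genes of this list, 6 had a higher and 3 a lower mean, with 0 calls in the group fit and 0 on the oocyte level. Fbxw10, also on the list, was below the filter at a mean of 2.95.

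After Fbxw8 and Fbxw11 the highest levels on this same scale were those of Fbxo21 at 11.25, Fbxo3 at 10.78, Fbxl17 at 10.72, Fbxl19 at 10.69, Fbxo11 at 10.56 and Fbxl5 at 10.53. Fbxl17 takes apart wrongly paired BTB-domain proteins, and Fbxl5 is the iron sensor that removes iron regulatory protein. Over the family, 50 of the 82 genes had a mean of at least 8 and 18 of at least 10. At the other end, Fbxl13 (3.54), Fbxo15 (3.88), Fbxl21 (4.01) and Fbxo47 (4.34) were just above the filter, which was a mean of 3.32. Fbxw10 (2.95), Fbxo2 (2.26), Fbxo24 (2.16) and Fbxo39 (0.33) were below it and were not tested.

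Fbxl5, Fbxl4 and Fbxo7 gave 0 calls between the groups. Fbxl4 and Fbxo7 are known from the turnover of mitochondria. Fbxl21 had the next smallest p after Fbxw13, with 0.12 (SE 0.066, limma adjusted p = 0.9999), at a level where the scale compresses differences.

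Some receptors of the sugar-binding group recognise N-glycans on misfolded glycoproteins. The tested genes of this group were Fbxo6, Fbxo17, Fbxo27 and Fbxo44. They were low, with means of 5.10 to 7.60, and gave 2 higher and 2 lower means with 0 calls. The muscle-linked genes Fbxo32, Fbxo40, Fbxl22 and Fbxo25 were likewise split 2 and 2. Fbxo32, or atrogin-1, known from wasting muscle, was 9.25, 8.78, 9.10, 9.08 and 9.42 in the controls and 8.78, 8.81, 9.31, 8.76 and 8.83 in the libraries labelled Uba3 cKO. Of the latter, 4 were near the lowest control and 1 was among the high controls, for a difference of -0.23 (SE 0.13, limma adjusted p = 0.9999).

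Stromal content was examined in the same way as oocyte content, with the mean of 10 stromal markers such as Dcn and Col1a1. The limma fit and its adjustment again included the markers, of which 9 passed. Of the other 15619 genes, 224 had a positive slope (1.43%) and 9 a negative one (0.0576%), and 0 of the 78 F-box genes passed. At an unadjusted p under 0.05, 5 F-box genes had a positive slope, where the share over all genes was 6.99%, and 0 a negative one, against 3.18%. These were Fbxl7, Fbxo27, Fbxl22, Fbxo17 and Fbxo21.

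Fbxl7 had the smallest p. It was 7.90, 7.71, 7.23, 7.54 and 7.50 in the controls and 7.48, 7.81, 7.52, 7.92 and 7.36 in the libraries labelled Uba3 cKO. Its highest values were in control replicate 1 and replicates 2 and 4 labelled Uba3 cKO, the 3 ovaries with the highest stromal levels. The slope was 0.51 (SE 0.14, limma adjusted p = 0.150). It passed without control replicate 3 (0.49, limma adjusted p = 0.034), with weights for library quality and with a term for transcript length. Under every other alternative run it did not pass, and leaving out libraries gave limma adjusted p-values of up to 0.54.

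The partners of the F-box proteins gave 0 calls as well. A list of 19 genes of the SCF core and the Nedd8 cycle had 9 higher and 10 lower means in the libraries labelled Uba3 cKO, with a median of -0.026. None had an unadjusted p under 0.05 in limma, against 1.79% of all genes. The smallest p-values were those of Ube2r2, a ubiquitin-conjugating enzyme, at -0.097 (SE 0.068), Rbx1 at -0.097 (SE 0.076), Senp8, a Nedd8 protease, at -0.080 (SE 0.065) and Nedd8 at -0.097 (SE 0.084). Cul1 was 11.55 ± 0.10 in the controls and 11.56 ± 0.056 in the libraries labelled Uba3 cKO (SD, n = 5 each). None of the 19 passed on the oocyte level.

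Transcripts of 26 known F-box substrates gave 12 higher and 14 lower means, a median of -0.011 and 0 calls. These are transcript levels, and no protein was measured. Jun, a transcription factor that Fbxw7 recognises, was 10.34 ± 0.16 in the controls and 9.997 ± 0.27 in the libraries labelled Uba3 cKO (SD, n = 5 each). Its difference was -0.35 (SE 0.12, limma adjusted p = 0.9999), and it was the 1 gene of the list with an unadjusted p under 0.05. Cry1 had 0.12 (SE 0.066), Eif3f -0.14 (SE 0.092) and Foxo1, a target of Skp2, -0.13 (SE 0.088).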

How the data were processed

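Bulk RNA sequencing values of 10 whole mouse ovaries, 5 Control and 5 Uba3 cKO, were used. Per the labels, RNA came from a PicoPure kit, libraries from a TruSeq kit and reads from a NovaSeq. The submitters' processing notes name fastp, STAR, featureCounts, DESeq2 and the build GRCm39, without versions or order. The authors deposited log2 values, the lowest -0.21 and the highest 20.19. Their transform is not given in the sources used here, they hold no counts, and low genes vary less than genes of middle level, so small values understate differences.

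Symbols came from a GENCODE M21 annotation (22188 of 22891 matched), used for names, lengths and gene order. A gene was tested if its mean reached 10 in linear units (3.32 in log2), which left 15629. limma 3.58.1 (R 4.3.3) with a mean-variance trend was fitted over all of them for the group and, with group as a covariate, for the oocyte and stromal marker means, with Benjamini-Hochberg adjustment and a threshold of 0.05. The fits were tested on simulated data. Single values were compared by exact permutation. Transcripts were compared with blastn 2.17.0. Named genes were those of the role lists, the smallest p-values of each fit, the highest levels and those next to the filter; others are named as chosen after their values were seen. The values of 1 gene are not reported here. Members and lists were chosen with earlier results of these data known. Alternatives were other filters, median centring, no trend, quality weights, further covariates, a replicate block and leaving out each library.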

Additional observations from a re-analysis of the deposited data

Results flagged for a closer look

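In 9 of 156 sets of 5 libraries (78 genes in 2 groups), 1 library stood apart from the other 4 of its group by Dixon's criterion at the 95% level, where chance gives about 7.8. In control replicate 3, Fbxw11 was 10.91 with the others at 11.30 to 11.37, Fbxo38 was 9.60 with the others at 10.12 to 10.27, and Fbxo36 was 7.56 with the others at 6.87 to 7.02. The same library had the most extreme slope of level on transcript length, at -0.179. Fbxo22 at 9.98 (others 9.63 to 9.68) and Fbxo32 at 9.31 (others 8.76 to 8.83) were high in replicate 3 labelled Uba3 cKO. Fbxo34 was low at 9.74 in replicate 5 labelled Uba3 cKO (others 9.99 to 10.06), and Fbxw17 was high at 8.78 in replicate 2 labelled Uba3 cKO (others 8.49 to 8.54). Fbxo10 was low at 8.84 in control replicate 4 (others 9.09 to 9.17), and Fbxw9 was low at 8.48 in control replicate 5 (others 8.61 to 8.64). None of the 9 was a gene of the run on chromosome 9.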

How the results depend on the processing

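The group fit called 0 genes under every alternative run except a covariate for transcript length, where it called 1 gene, not an F-box gene. Leaving out each library gave a difference of -0.0097 to 0.085 for Skp2 and of -0.022 to 0.067 for Ccnf, so their signs were not fixed. Over the alternatives for selected genes of this fit, 175 values kept their direction and side of the threshold and 3 reversed, all of them in these 2 genes. The selected genes were Skp2, Btrc, Ccnf, Fbxo5 and those with the smallest p: Fbxw13, Fbxl21, Fbxo32, Fbxl13, Fbxl18 and Fbxl2. Genes picked for a small p seldom change sign, so the count does not describe the whole family. Replicate numbers did not pair the samples (same-number correlations of -0.27 to 0.28); with the replicate block 0 genes were called and 311 had an unadjusted p under 0.05, against 280 without it. On the oocyte level, 327 genes were called in all, 939 with quality weights, 203 with 5 markers, 106 with the endothelial level and 67 to 320 when each library was left out, with 67 without replicate 5 labelled Uba3 cKO and at most 208 without any other library but control replicates 3 and 5; the F-box genes called were 12, then 18 with weights, 10 with 5 markers, 7 with the endothelial level, and 4 to 11. On the stromal level, 233 genes were called, 1293 with weights, 355 with the length covariate and 60 to 312 leaving out libraries, with 60 to 112 without control replicate 5 or any of replicates 2 to 5 labelled Uba3 cKO; the F-box genes called were 0, then 4, 2 and 0 to 1. The cause of these changes was not tested. Alternatives for pseudocounts and count tests were not run, since the values are already log2 and no counts could be recovered. The low-level genes Fbxl13, Fbxo15 and Fbxl21 lie where the scale is compressed and depth is unknown.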
